A study of Mus musculus with 8 samples.

Results

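Among the piRNA loci counted in mouse testis, 114 named for a gene and 94 for a chromosome band, 4 of the gene-named loci were taken by name for lying over genes of chromatin proteins: pi-Dnmt3a.2, pi-Cbx5.3, pi-Hjurp.2 and pi-Hist1h1a.2. All 4 passed the filter on low counts in small and in long RNA, as did every other locus. The 4 were picked partly on their small RNA difference between the genotypes, which was already known, so that difference is given as a description with no test. The long RNA contrast and the gene structure are separate from it, though the 4 were chosen with earlier results of these data known.

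The study asked whether EXD2, an exonuclease domain-containing protein, takes part in making PIWI-interacting RNAs (piRNAs) in the male germ line. Exd2∆ mice come from C57BL6 embryos edited with Cas9 to delete the 3′ end of exon 2 with some of the intron after it, and Exd2+/+ mice are the controls; all were adult, and whole testes were used, with germ and somatic cells together. Each genotype has 2 replicates, which the series' design text calls biological, in small RNA-seq of gel-cut small RNA and 2 in rRNA-depleted, directional long RNA-seq. The small RNA libraries held 28408830 to 37660202 and the long RNA libraries 960909 to 1842625 estimated counts over all loci. Exd2 itself is not among the loci, and 0 of 16 germ cell and somatic marker genes looked for are, so neither genotype nor cell makeup could be checked. Levels are CPM, a library's counts scaled to a common total over these loci and then by the trimmed mean of M-values (TMM), so they are relative to the piRNA loci counted and not to all RNA of the cell.

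piRNAs are short RNAs that guide PIWI proteins to complementary RNA, and in the mouse testis they silence transposons and help spermatogenesis along. They are cut from long single-stranded precursors, many of them intergenic transcripts of the pachytene stage of meiosis, while others come from transcripts of protein-coding genes. At a gene-named locus, long RNA is therefore mRNA and any precursor together, and small RNA is every small RNA counted there. The proteins encoded under the 4 loci act at different steps on chromatin: DNMT3A is a de novo DNA methyltransferase that sets methylation in germ cells, HP1α from Cbx5 binds histone H3 methylated at lysine 9 in heterochromatin, HJURP is the chaperone that places the histone variant CENP-A at centromeres, and H1.1 from Hist1h1a is a linker histone found in spermatogonia and early spermatocytes.

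The loci differ in how they sit on their genes (GRCm38 coordinates of the deposited tables, GENCODE M21 genes). pi-Dnmt3a.2 (chromosome 12, 3806979 to 3914443, plus strand) spans 107465 bp, all of it inside Dnmt3a, and 10.6% of the span is exon of protein-coding transcripts. pi-Cbx5.3 (chromosome 15, 103191552 to 103240756, minus strand) spans 49205 bp, of which 18.3% is exon, with 573 coding bases and 8425 bases of untranslated exon. That locus begins 940 bp before the annotated start of Cbx5 and so covers 325 bp of the neighbouring gene Hnrnpa1, which codes for an RNA-binding protein and runs the other way. pi-Hjurp.2 (chromosome 1, 88258855 to 88277518, minus strand) spans 18664 bp, 25.6% of it exon, and runs 3616 bp past the annotated end of Hjurp. In that stretch it overlaps 3435 bp of Mroh2a on the opposite strand, 18.4% of the locus. pi-Hist1h1a.2 (chromosome 13, 23763667 to 23764414, plus strand) spans 748 bp over a gene of a single exon, 85.4% of the span being coding. pi-Dnmt3a.2 also covers 2952 bp of the antisense gene Dnmt3aos, and whether the deposited counts were assigned by strand is not given in the sources used here, so reads of these opposite-strand partners cannot be told apart from those of the loci.

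**Figure D1:**
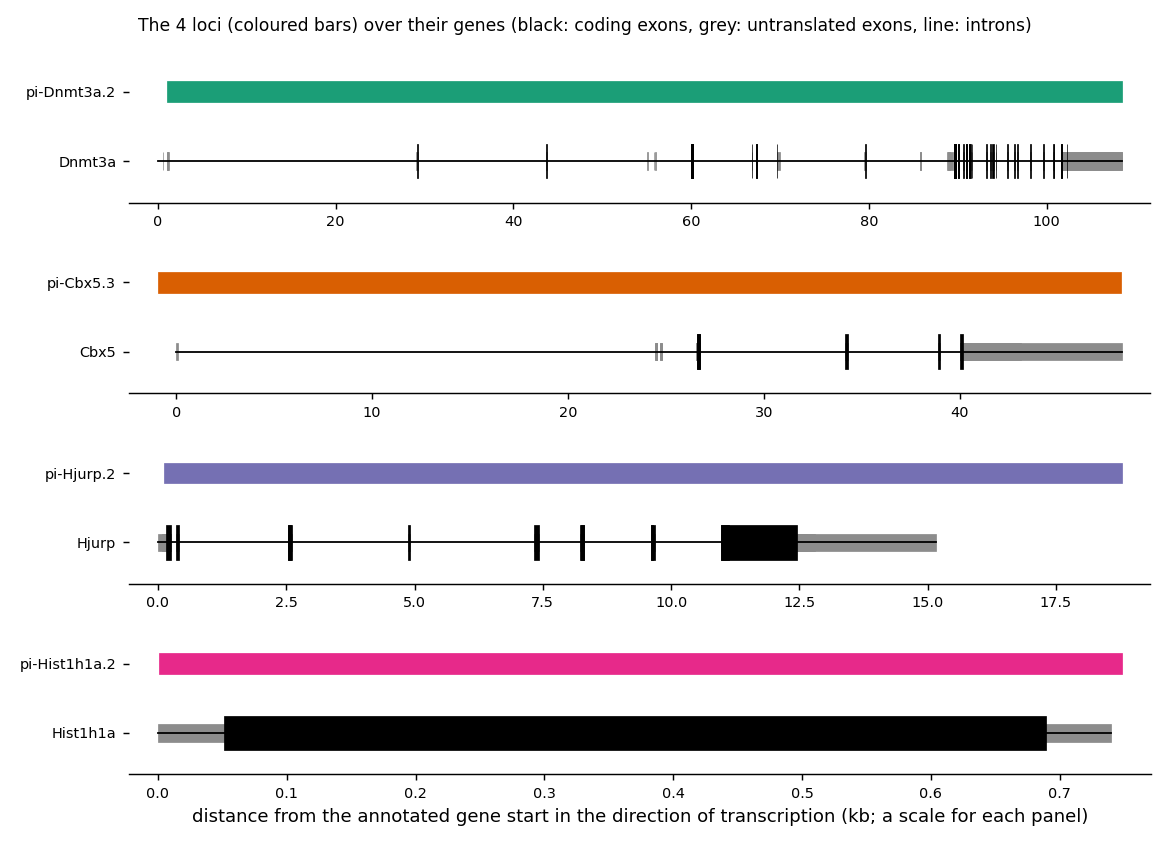
Maps of the 4 loci (coloured bars) above the gene each is named for, with the distance from the annotated gene start in kb on the x axis and a scale for each panel; black boxes are coding exons, grey boxes untranslated exons and the line introns. The bar of pi-Cbx5.3 begins 940 bp before its gene, the bar of pi-Hjurp.2 ends 3616 bp after its gene, and the bar of pi-Hist1h1a.2 covers a gene with no intron.

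The sequence before each gene's RefSeq start is shown to place the beginning of its locus. Each is a stretch of the 250 bases before the RefSeq start that lies in no annotated exon of either strand (RefSeq, GRCm38.p6), given 5′ to 3′ on the strand of the gene. Capitals mark matches on either strand to short motifs that were chosen with earlier results known. One is AACGG, the core of the MYB binding site, and another is the CCAAT box. The others are the TATA box, searched as TATAAA, and the E-box, searched as CACGTG.
pi-Dnmt3a.2: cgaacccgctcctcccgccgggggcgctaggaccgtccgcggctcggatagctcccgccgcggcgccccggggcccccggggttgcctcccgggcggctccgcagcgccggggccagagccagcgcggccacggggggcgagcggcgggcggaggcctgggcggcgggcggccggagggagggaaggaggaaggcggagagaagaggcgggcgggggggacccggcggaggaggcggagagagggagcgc
pi-Cbx5.3: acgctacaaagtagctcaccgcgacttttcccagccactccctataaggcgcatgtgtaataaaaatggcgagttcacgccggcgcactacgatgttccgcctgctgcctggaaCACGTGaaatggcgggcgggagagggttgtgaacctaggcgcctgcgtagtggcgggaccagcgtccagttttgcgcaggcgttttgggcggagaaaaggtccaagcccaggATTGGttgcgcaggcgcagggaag
pi-Hjurp.2: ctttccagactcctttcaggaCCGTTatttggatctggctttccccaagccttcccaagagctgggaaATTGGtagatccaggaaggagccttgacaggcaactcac
pi-Hist1h1a.2: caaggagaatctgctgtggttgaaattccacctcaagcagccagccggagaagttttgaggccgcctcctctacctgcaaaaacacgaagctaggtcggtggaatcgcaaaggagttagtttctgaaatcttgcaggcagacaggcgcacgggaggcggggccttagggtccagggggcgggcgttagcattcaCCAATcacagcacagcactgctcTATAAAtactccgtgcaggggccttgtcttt

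The Dnmt3a stretch (chr12:3806730-3806979, plus strand) is 82.4% G or C, against a median of 52.4% over 32851 promoter windows of 250 bases, and holds none of these letters. It lies inside the annotated gene, whose GENCODE start is at 3806007. The Cbx5 stretch (chr15:103239853-103240102, minus strand) lies wholly inside pi-Cbx5.3, whose first base is 904 bp before the RefSeq start, and holds CCAAT and CACGTG, which 33.8% and 6.02% of such windows also hold. The Hjurp stretch (chr1:88277723-88277829, minus strand) is 107 bases long, from 250 to 144 bases before the RefSeq start, since exonic bases are left out. It holds AACGG and CCAAT, as do 5.95% and 14.5% of windows of that length, and pi-Hjurp.2 itself begins 61 bp after the RefSeq start. The Hist1h1a stretch (chr13:23763418-23763665, plus strand) ends just before its locus and holds CCAAT and TATAAA, which 33.7% and 12.3% of windows hold. A match is a description of these letters and shows no binding.

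At pi-Dnmt3a.2 small RNA was lower in Exd2∆ testis and in long RNA the genotypes overlapped. Small RNA measured 5.78 and 5.28 CPM in the Exd2∆ libraries, against 15.9 and 14.5 CPM in the Exd2+/+ libraries. Both Exd2∆ libraries lay below both Exd2+/+ libraries, and the replicates of a genotype lay close together. The log2 fold change was -1.46 ± 0.12 (SE), 2.76-fold lower in Exd2∆, and spanned -1.59 to -1.33 over the 4 pairings of an Exd2∆ with an Exd2+/+ library. Long RNA measured 1396 and 1417 CPM in Exd2∆, against 1442 and 1313 CPM in Exd2+/+. The long RNA difference at pi-Dnmt3a.2 was 0.03 ± 0.09 (log2, SE) and did not pass edgeR's quasi-likelihood test (adjusted p = 0.865); the 95% interval of the fold reached from 0.874 to 1.19. In whole testis, fewer cells that make an RNA and less of it per cell cannot be told apart.

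pi-Hist1h1a.2 resembled pi-Dnmt3a.2 in small RNA and differed from it in long RNA, where its replicates lay far apart. Small RNA stood at 5.24 and 5.62 CPM in Exd2∆ and at 14.6 and 13.8 CPM in Exd2+/+, again with no overlap. The log2 fold change was -1.38 ± 0.11 (SE), 2.60-fold lower in Exd2∆. Linker histone messages of this replication-dependent type end in a stem-loop and not in a poly(A) tail, and rRNA depletion keeps such RNA in the library. Long RNA measured 8236 and 4322 CPM in Exd2∆, against 6019 and 4029.8 CPM in Exd2+/+. The first-numbered library was the higher in each genotype, 1.91-fold in Exd2∆ and 1.49-fold in Exd2+/+, so the genotypes overlapped. By edgeR's quasi-likelihood test the difference was 0.32 ± 0.34 (log2, SE; adjusted p = 0.552), with a 95% interval of the fold from 0.695 to 2.25. Leaving out Exd2∆ replicate 1 turned it to -0.21, and leaving out Exd2∆ replicate 2 made it 0.72. In each case the lone Exd2∆ library was assumed to vary like the Exd2+/+ libraries. The p-values of these fits are left out for that reason.

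pi-Cbx5.3 had the most small RNA of the 4 loci and more of it in Exd2∆. It measured 223 and 257 CPM in the Exd2∆ libraries, against 144 and 154 CPM in the Exd2+/+ libraries. Each Exd2∆ library lay above both Exd2+/+ libraries. The log2 fold change was 0.69 ± 0.12 (SE), 1.61-fold higher in Exd2∆, and 0.57 without Exd2∆ replicate 2. Long RNA stood at 3932 and 3486 CPM in Exd2∆ and at 3845 and 3545 CPM in Exd2+/+. The genotypes overlapped, and the log2 difference of 0.01 ± 0.10 (SE) did not pass edgeR's quasi-likelihood test (adjusted p = 0.995), with a 95% interval of the fold from 0.838 to 1.20.

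Unlike pi-Dnmt3a.2, pi-Hist1h1a.2 and pi-Cbx5.3, pi-Hjurp.2 had small and long RNA both higher in every Exd2∆ library than in any Exd2+/+ library. Small RNA measured 64.5 and 87.2 CPM in Exd2∆, against 15.9 and 25.8 CPM in Exd2+/+, a log2 fold change of 1.86 ± 0.23 (SE). The second-numbered library was the higher in each genotype, 1.35-fold in Exd2∆ and 1.62-fold in Exd2+/+, and the fold between single libraries spanned 2.50 to 5.49. The pooled SD of its log2 small RNA level between replicates, 0.412, was the largest of all loci, whose median was 0.0793. Long RNA measured 4350.4 and 3932 CPM in Exd2∆, against 2408 and 3302 CPM in Exd2+/+. The log2 fold change of 0.54 ± 0.17 (SE) missed the threshold (adjusted p = 0.117, edgeR quasi-likelihood), with a 95% interval of the fold from 1.09 to 1.94. Unlike the adjusted p, that interval and those of the other members are not adjusted for the number of loci.

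That call for long RNA at pi-Hjurp.2 depended on the test, and the size of the difference on single libraries. DESeq2 called the locus higher (0.53, adjusted p = 0.0202), and edgeR's exact test did not (0.54, adjusted p = 0.0554). Without Exd2∆ replicate 1 or replicate 2 the log2 fold change was 0.46 and 0.61. Without Exd2+/+ replicate 1 or replicate 2 it was 0.33 and 0.78. In each of these fits the genotype left with 1 library was assumed to vary like the other. No call is therefore read from them. What share of the long RNA reads at pi-Hjurp.2 comes from the 3435 bp that overlap Mroh2a was not tested.

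**Figure D2:**
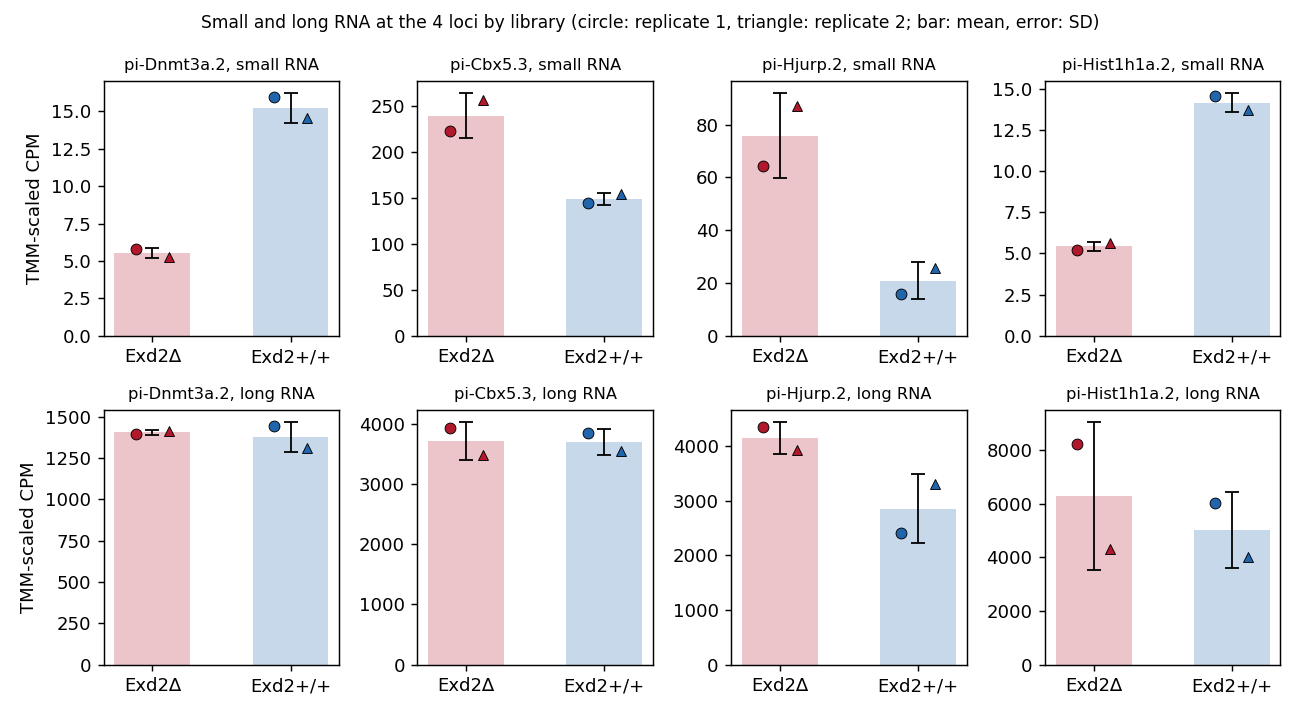
TMM-scaled CPM of each library at the 4 loci (columns), small RNA in the upper row and long RNA in the lower, with Exd2∆ left of Exd2+/+; circles are replicate 1, triangles replicate 2, bars the mean and error lines the SD of the 2 libraries. In small RNA the genotypes are apart in each panel, and in long RNA they are apart at pi-Hjurp.2 alone, while the long RNA of pi-Hist1h1a.2 spreads from 4029.8 to 8236 CPM.

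The calls over all loci give the background for these 4. In long RNA 16 of all loci (7.69%) passed an adjusted p below 0.05 by edgeR's quasi-likelihood test, 6.73% as higher and 0.962% as lower in Exd2∆, and 0 of the 4 did, with pi-Hjurp.2 the only member at an unadjusted p under 0.05, which 29.3% of all loci reached. Of the 4 members DESeq2, which called 35 of all loci in long RNA, called pi-Hjurp.2. edgeR's exact test, with 25 loci called, and limma-voom, with 18, called none of the 4. The libraries of the genotypes did not overlap at 1 of the 4 in long RNA, against 62.5% of all loci, 32.2% with Exd2∆ above and 30.3% with Exd2∆ below Exd2+/+. In small RNA 135 of all loci (64.9%) passed, 33.2% as higher and 31.7% as lower in Exd2∆. Small RNA did not overlap between the genotypes at 79.3% of all loci, 39.9% with Exd2∆ above and 39.4% with Exd2∆ below; since the members were picked with this contrast known, their small RNA is not counted against these shares. As a background level, all loci had a median log2 fold change of 0.04 in small and 0.01 in long RNA.

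**Figure D3:**
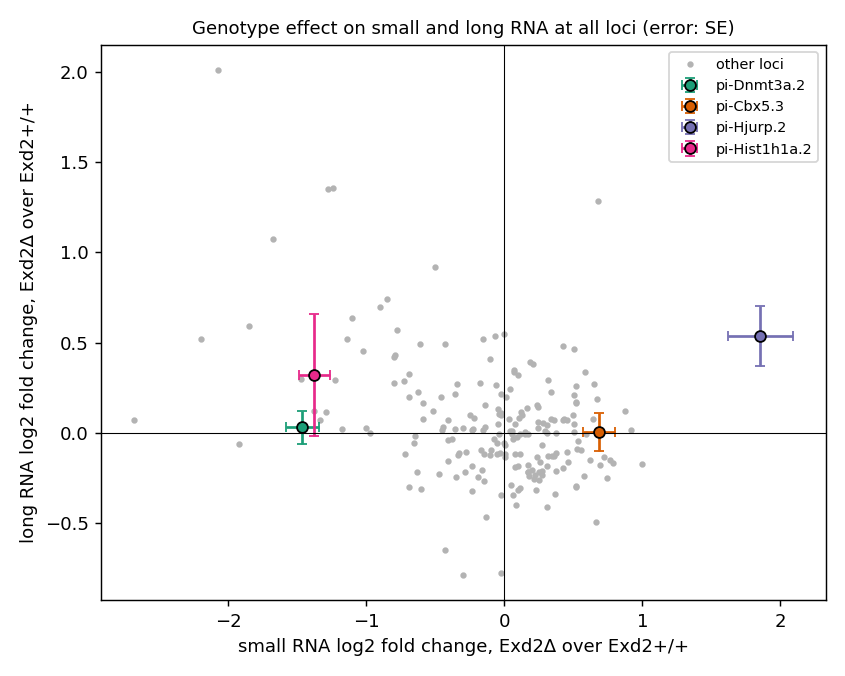
Log2 fold change of Exd2∆ over Exd2+/+ in small RNA (x axis) and long RNA (y axis) for all loci in grey and the 4 loci in colour, with SE as error bars. pi-Dnmt3a.2 and pi-Hist1h1a.2 lie at -1.46 and -1.38 on the x axis, pi-Cbx5.3 at 0.69 and pi-Hjurp.2 at 1.86, while on the y axis the 4 lie between 0.01 and 0.54.

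The order of the loci depended on the length used, and per exonic kb the small RNA order also differed between the genotypes. Levels were divided by the exonic bases of any annotated transcript on the locus strand, which were 16311 for pi-Dnmt3a.2, 8998 for pi-Cbx5.3, 8216 for pi-Hjurp.2 and 740 for pi-Hist1h1a.2. The small RNA level in Exd2∆ was 26.7 ± 2.71 CPM per exonic kb at pi-Cbx5.3, 9.23 ± 1.96 at pi-Hjurp.2, 7.34 ± 0.362 at pi-Hist1h1a.2 and 0.339 ± 0.0214 at pi-Dnmt3a.2 (SD, n = 2 each). pi-Hjurp.2 and pi-Hist1h1a.2, neighbours in that order, differed by less than the SD of pi-Hjurp.2. In Exd2+/+ pi-Hist1h1a.2 came first with 19.1 ± 0.787 CPM per exonic kb, then pi-Cbx5.3 with 16.6 ± 0.771, pi-Hjurp.2 with 2.54 ± 0.854 and pi-Dnmt3a.2 with 0.934 ± 0.0606 (SD, n = 2 each). Each step in the Exd2+/+ order was larger than the SDs of its neighbours. Over the 114 gene-named loci the median was 5.70 CPM per exonic kb in Exd2∆ and 6.40 in Exd2+/+, so pi-Cbx5.3 and pi-Hist1h1a.2 lay above it in both genotypes and pi-Dnmt3a.2 below it in both. pi-Hjurp.2 lay above that median in Exd2∆ (place 46 of 114) and below it in Exd2+/+ (place 76). Such changes of place between the genotypes carry the small RNA contrast that the loci were picked on, so nothing is read from them. Per kb of locus span, introns included, the small RNA order was the same in both genotypes. pi-Hist1h1a.2 then led with 7.26 CPM per kb in Exd2∆ and 18.9 in Exd2+/+, followed by pi-Cbx5.3 with 4.87 in Exd2∆ and 3.03 in Exd2+/+. pi-Hjurp.2 had 4.06 CPM per kb of span in Exd2∆ and 1.12 in Exd2+/+, and pi-Dnmt3a.2 0.0515 in Exd2∆ and 0.142 in Exd2+/+.

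In long RNA pi-Hist1h1a.2 stood far above the other members per length. Its level was 8485 ± 3739.6 CPM per exonic kb in Exd2∆ and 6789 ± 1900.3 in Exd2+/+, place 1 and place 2 of the 114 gene-named loci. pi-Hjurp.2 had 504 ± 36.0 CPM per exonic kb in Exd2∆ and 348 ± 77.0 in Exd2+/+, where ± is the SD over 2 libraries here and below. pi-Cbx5.3 had 412 ± 35.0 in Exd2∆ and 411 ± 23.6 in Exd2+/+, which in Exd2+/+ was within the SD of pi-Hjurp.2. pi-Dnmt3a.2 had the lowest long RNA level of the 4, 86.2 ± 0.888 CPM per exonic kb in Exd2∆ and 84.4 ± 5.60 in Exd2+/+.

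The small RNA obtained for a given amount of long RNA was below the median of all loci at each of the 4, in both genotypes. It is given as mean small RNA CPM over mean long RNA CPM, a ratio of shares and not of molecules, and the labels do not say that the libraries of the 2 assays come from the same mice. At pi-Hist1h1a.2 the ratio was 0.000865 in Exd2∆ and 0.00282 in Exd2+/+, place 207 and place 200 from the highest of all loci. At pi-Dnmt3a.2 it was 0.00393 in Exd2∆ and 0.0111 in Exd2+/+. pi-Hjurp.2 had 0.0183 in Exd2∆ and 0.00731 in Exd2+/+. At pi-Cbx5.3, the highest of the 4, it was 0.0647 in Exd2∆ and 0.0403 in Exd2+/+, against medians over all loci of 0.137 in Exd2∆ and 0.164 in Exd2+/+. Among the 114 gene-named loci, whose medians were 0.0310 in Exd2∆ and 0.0250 in Exd2+/+, pi-Cbx5.3 stood above the middle, at place 33 in Exd2∆ and place 41 in Exd2+/+. The other 3 members lay below those medians too. The gene-named medians were themselves below those of all loci, so a ratio below the latter is not particular to the 4. The difference in the ratio between the genotypes carries the small RNA contrast that the loci were picked on, so nothing is read from it.

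**Figure D4:**
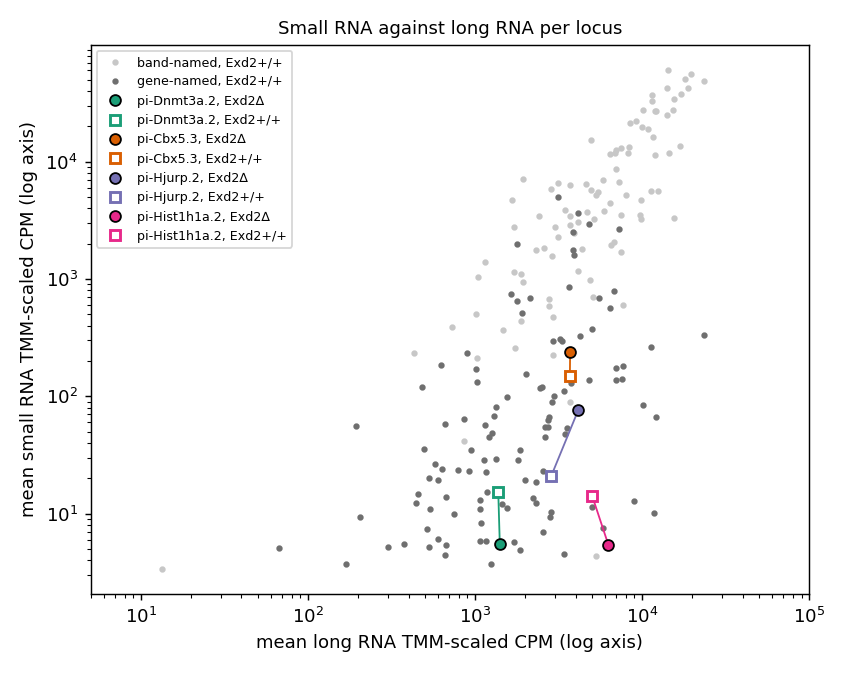
Mean small RNA CPM against mean long RNA CPM on log axes for the 94 band-named loci (light grey) and the 114 gene-named loci (dark grey) in Exd2+/+, with the 4 loci as filled circles in Exd2∆ joined to open squares in Exd2+/+. The lines of pi-Dnmt3a.2 (small RNA means of 5.53 CPM in Exd2∆ and 15.2 CPM in Exd2+/+) and pi-Cbx5.3 (240 CPM in Exd2∆ and 149 CPM in Exd2+/+) run nearly upright, and that of pi-Hjurp.2 leans toward more long RNA in Exd2∆.

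The deposited counts of the 4 loci differed in how often they were whole numbers. All 4 long RNA values of pi-Hist1h1a.2 were whole (within 0.001), as at 11 of all loci, while those of the other members were fractional. In small RNA 1 of the 4 values of pi-Hist1h1a.2 was whole and none of the other members' were. Of the stretches of 26 bases, about the size of a piRNA, in the longest coding transcript, 1.12% of those of Hist1h1a also occur in transcripts of other genes, all 4 of them other H1 histone genes (Hist1h1b, Hist1h1c, Hist1h1d and Hist1h1e). At 50 bases, the read length, none did. For Dnmt3a 0.870% of the stretches of 26 bases were shared, among others with its pseudogene Dnmt3a-ps1, for Cbx5 1.45%, spread over 718 other genes, and for Hjurp 0.00%. Introns were not covered by this comparison. The lowest count behind a member's value was 146.4 in small RNA (pi-Hist1h1a.2, a counting error of 8.26%) and 1301 in long RNA (pi-Dnmt3a.2, 2.77%); these errors cover counting only.

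The loci most like each member were found by the distance between their log2 CPM over the 8 libraries, each centred within its assay. For pi-Dnmt3a.2 they were pi-Zfp346.2, a band-named locus on chromosome 10 (20310505 to 20312760, minus strand) and pi-Cramp1l.1, at distances of 0.302, 0.343 and 0.380, against a median of 1.56 to all loci. For pi-Cbx5.3 they were pi-Ipmk.1, pi-Hinfp.1 and pi-Rnf169.1 at 0.160, 0.194 and 0.210, against a median of 0.782. pi-Hist1h1a.2 was closest to pi-Fth1.1, pi-Mlec.1 and that same chromosome 10 locus at 0.558, 0.617 and 0.690, against 1.68. pi-Hjurp.2 had no close neighbour: pi-Rad54l2.1, pi-Elk4.1 and pi-Gabpb2.1 lay at 1.29, 1.34 and 1.39, against 2.09, and their small RNA log2 fold changes were 0.88, 0.92 and 1.00, beside 1.86 at pi-Hjurp.2. Among the members pi-Dnmt3a.2 and pi-Hist1h1a.2 were the nearest pair, at 0.803, and pi-Dnmt3a.2 and pi-Hjurp.2 the farthest, at 3.49. These distances carry the small RNA contrast that the members were picked on, so they describe the loci and nothing further is read from them.

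A further 7 loci lie over genes of a wider list of chromatin proteins. That list was drawn up with earlier results of these data known, so its calls and p-values are given as a description only. Small RNA rose at 3 of the 7 in Exd2∆ and fell at 0 (edgeR quasi-likelihood, adjusted p below 0.05), with a median log2 fold change of 0.10, against 33.2% of all loci called higher, 31.7% called lower and a median of 0.04. The 4 members, of which pi-Dnmt3a.2 and pi-Hist1h1a.2 were lower in Exd2∆, are not among the 7. These counts hold for the symbols on that list only, and another choice of symbols could change them. pi-Cramp1l.1, named above as near pi-Dnmt3a.2, is not on the list and had a small RNA log2 fold change of -1.17 ± 0.13 (SE). pi-Rad54l2.1, over a gene for a helicase of the SNF2 remodeller family, stood at 17.3 and 16.9 CPM in Exd2∆ and at 9.45 and 9.20 CPM in Exd2+/+. pi-Rnf169.1, over a gene for a protein that binds ubiquitylated chromatin at DNA breaks, stood at 119 and 147 CPM in Exd2∆ and at 83.4 and 78.1 CPM in Exd2+/+. pi-Ing5.1, over a gene for a reader of methylated histone H3, stood at 31.1 and 41.7 CPM in Exd2∆ and at 25.3 and 21.3 CPM in Exd2+/+. These 3 rose by 0.88, 0.72 and 0.65 on the log2 scale (adjusted p = 1.21e-04, 0.00169 and 0.00799, edgeR quasi-likelihood).

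The other 4 were not called in small RNA. pi-Tet3.2, over the gene for an enzyme that oxidises the methyl mark DNMT3A sets, measured 9.19 and 8.44 CPM in Exd2∆, against 8.72 and 8.01 CPM in Exd2+/+. Its log2 fold change was 0.08 ± 0.11 (SE), beside -1.46 at pi-Dnmt3a.2. pi-Nsd1.1, over the gene for a histone H3 lysine 36 methyltransferase, had 0.10 ± 0.14, pi-Phf20.1, over the gene for a histone reader of an acetyltransferase complex, 0.08 ± 0.14, and pi-Mllt6.1, over the gene for a PHD finger protein, -0.14 ± 0.12. In long RNA 0 of the 7 passed, against 7.69% of all loci (lowest adjusted p = 0.388, edgeR quasi-likelihood), with log2 fold changes between -0.13 and 0.27.

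The authors' deposited table gives small RNA log2 fold changes of -1.46 for pi-Dnmt3a.2, -1.38 for pi-Hist1h1a.2, 0.69 for pi-Cbx5.3 and 1.90 for pi-Hjurp.2. For long RNA the authors' deposited table gives 0.03, 0.22, 0.003 and 0.53 for the same loci, with a lowest adjusted p of 0.109 at pi-Hjurp.2. The value of pi-Hist1h1a.2 in long RNA, where its replicates lay far apart, was the member value that differed most from the 0.32 computed here.

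**Figure D5:**
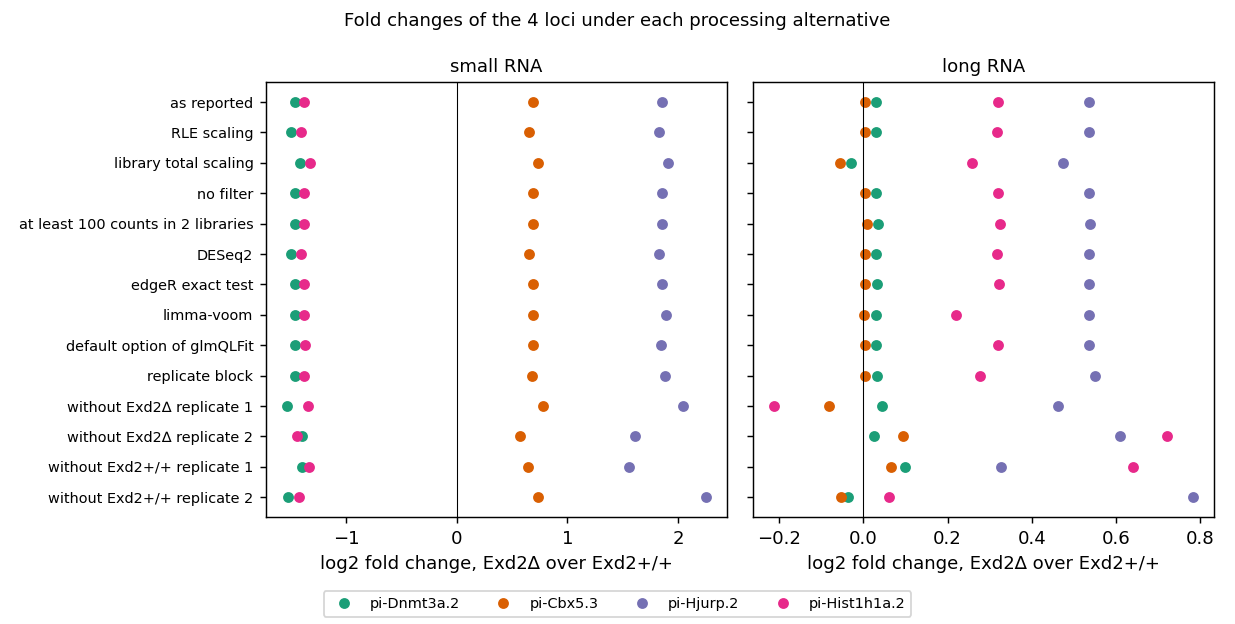
Log2 fold change of Exd2∆ over Exd2+/+ (x axis) at the 4 loci in small RNA (left) and long RNA (right) under each processing alternative (rows). In small RNA each locus keeps its side of 0 in all rows shown, and in long RNA pi-Hist1h1a.2 spreads from -0.21 to 0.72.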

How the data were processed

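The authors deposited, for each assay, estimated counts per piRNA locus and library, not scaled to depth and often fractional, with a log2 fold change and an adjusted p-value that the file headers credit to edgeR. The tools named by the submitters' processing notes are cutadapt, STAR and edgeR, with the GRCm38 build. Neither versions nor the counting tool, its strand setting or its treatment of reads that align more than once were stated. Columns were matched by the sample codes in the labels, with 0 left unmatched.

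Counts were rounded and fitted over all loci per assay in R 4.3.3 with edgeR 4.0.16 (filterByExpr, TMM, glmQLFit with the legacy option, genotype as the only term, Benjamini-Hochberg, adjusted p below 0.05). The fit was tested on counts simulated from its own model, where only the fold changes and not the calls had to meet a bound. The SE is the absolute log2 fold change over the square root of F. DESeq2 1.42.0, limma 3.58.1 and the other alternatives are compared in the closing section. The wider list of chromatin genes, the named loci (the 4 members, 3 nearest loci each and the loci on that list) and the members were chosen with earlier results of these data known. The quasi-likelihood p-values set the genotype difference against the spread between 2 libraries per genotype, moderated by the spread of all loci.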

Additional observations from a re-analysis of the deposited data

How the results depend on the processing

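The small RNA log2 fold changes of the 4 loci kept their sign under every alternative run (RLE and library-total scaling, no filter, at least 100 counts in 2 libraries, DESeq2, edgeR's exact test, limma-voom, the default glmQLFit option, the replicate block and leaving out each library). Without 1 library they ranged from -1.53 to -1.40 at pi-Dnmt3a.2, from -1.44 to -1.34 at pi-Hist1h1a.2, from 0.57 to 0.78 at pi-Cbx5.3 and from 1.56 to 2.26 at pi-Hjurp.2. In long RNA the ranges without 1 library were -0.036 to 0.10 at pi-Dnmt3a.2, -0.21 to 0.72 at pi-Hist1h1a.2, -0.081 to 0.095 at pi-Cbx5.3 and 0.33 to 0.78 at pi-Hjurp.2; the genotype left with 1 library was assumed to vary like the other. At scaling to the library total the signs of pi-Dnmt3a.2 and pi-Cbx5.3, both near 0 in long RNA, turned to -0.028 at pi-Dnmt3a.2 and -0.055 at pi-Cbx5.3; the median of all loci moved there from 0.01 to -0.05. Of the long RNA values, that of pi-Hjurp.2 passed with DESeq2 (0.53) and with the replicate block (0.55, adjusted p = 2.78e-04), the cause of which was not tested. The number of loci called in long RNA was 16, against 35 with DESeq2, 25 with edgeR's exact test, 38 with the replicate block and 26 at an adjusted p below 0.1, and without 1 library it ranged from 0 to 105: 60 without Exd2∆ replicate 1, 105 without Exd2∆ replicate 2 and 0 without either Exd2+/+ replicate, although 17 and 20 loci there had an unadjusted p under 0.05 by edgeR's quasi-likelihood test. In small RNA it ranged from 101 to 123 without 1 library, against 135. The deviations of same-numbered libraries correlated at 0.04 in small and 0.34 in long RNA, and nothing in the labels says that a number marks a shared litter or day. The small to long RNA ratios moved by less than the replicate spread under RLE and library-total scaling.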

Other observations

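Although the file headers credit edgeR, the log2 fold changes in the authors' deposited table lay within 0.001 of those computed here with limma-voom at 203 loci in long RNA and 183 in small RNA, against 42 and 63 for edgeR's quasi-likelihood fit. The member with the widest gap was pi-Hist1h1a.2 in long RNA, with 0.22 in the authors' deposited table, 0.22 by limma-voom and 0.32 by edgeR's fit. Together the 4 loci took 0.0292% and 0.0374% of the small RNA counts over all loci in the Exd2∆ libraries, against 0.0188% and 0.0204% in the Exd2+/+ libraries. pi-Cbx5.3 (240 CPM in Exd2∆ and 149 CPM in Exd2+/+) made up most of that sum, while pi-Dnmt3a.2 and pi-Hist1h1a.2 were lower in Exd2∆. The sum carries the small RNA contrast that the loci were picked on, so nothing is read from it. Of the long RNA counts over all loci the 4 took 1.74% and 1.30% in Exd2∆ and 1.40% and 1.25% in Exd2+/+.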
